A study of Mus musculus with 7 samples.

Results

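The homeobox genes outside the Hox clusters were examined in 2 cell populations sorted from embryonic mouse bowel. They were taken by symbol from the Dlx, Lhx, Irx, Msx, Gbx, Pitx, Emx, Otx, Prrx, sine oculis (Six2 and its relatives), Lmx1, Isl, Phox2, Nkx, Pou, Onecut and Cux families, which gave 71 of the 19938 genes tested. Another 9 symbols that fit the same patterns in the RefSeq gene table were not analysed here. All 7 samples came from whole bowel at embryonic day 17.5 of mice carrying Wnt1-Cre and the reporter R26R-EYFP. The 4 YFP-positive samples hold ENCDC, the bowel cells that descend from neural crest, and the 3 YFP-negative samples hold the YFP-negative rest of the bowel (non-ENCDC). Wnt1-Cre acts in the embryonic neural crest and leaves the fluorescent reporter on in every descendant, so the positive sort can hold neurons, glia and progenitors. The stated purpose was to find genes that ENCDC express more than other bowel cells and that could act late in building the enteric nervous system.

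Homeobox genes encode transcription factors that hold DNA with a homeodomain, and most of these domains bind sites with the core letters TAAT. Different families set the identity of neurons, of mesenchyme and of stretches of the gut tube. In autonomic ganglia Phox2 factors are needed for neurons to form, and Dlx genes, which lie in neighbouring pairs in the genome, are known from forebrain interneurons, branchial arches and the enteric nervous system. Nkx, Pitx, Prrx and sine oculis genes are known from gut, limb and head mesenchyme, and several Lhx, Isl, Pou and Onecut genes from neuron subtypes or endocrine cells.

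Each value is the log2 level of 1 probe set on a gene array, and a difference of 1 is a 2-fold difference. Probe sets differ in brightness, so differences are taken between arrays for the same gene. Levels of different genes are set side by side only to mark dim probe sets and to choose genes to name. They do not rank genes by amount of RNA. Each array had a median between 5.87 and 5.92 over all genes tested. The pan-neuronal marker list was higher in YFP-positive samples for 12 of 12 genes, with list means of 8.39 to 9.07 against 5.02 to 5.34. The glial and progenitor list was higher for 6 of 6 measured genes. The fibroblast and myeloid lists were lower for 8 of 8 genes each, and the smooth muscle list for 4 of 8. The epithelium list did not separate the groups, with 0 of 12 genes higher or lower and means of 8.07 to 9.22 against 8.76 to 8.81. The lists of endothelium and of interstitial cells of Cajal each had 1 gene higher and 2 lower. Among the YFP-positive arrays the pan-neuronal mean was 9.07, 9.04, 8.59 and 8.39 in order from array 1 to 4. The smooth muscle mean was 7.58, 8.30, 8.85 and 9.28 on the same arrays and the fibroblast mean 7.20, 7.39, 7.99 and 8.22. In sorted bulk samples, fewer cells of a type and less RNA per cell cannot be told apart. The labels do not state whether each sample is another animal, so a p-value reflects only how these samples vary. Precision is limited by the number of arrays.

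Of the 71 homeobox genes, 9 differed between the sorted populations at a limma adjusted p under 0.05, 5 higher and 4 lower in YFP-positive cells. That is 12.7% of them, against 17.5% of all genes tested, and by direction 7.04% against 8.39% for higher genes and 5.63% against 9.11% for lower genes. Phox2a, Dlx1, Dlx5, Dlx2 and Pou3f3 rose, and Prrx1, Nkx2-3, Pitx1 and Six2 fell. The median log2 fold change over the 71 genes was near 0 (-0.0002), as over all genes (0.012), and 50 of them differed by less than 0.2 in either direction. Of the 71, 4 rose by at least 2-fold (Phox2a, Dlx1, Dlx5 and Dlx2) and 1 fell by that much (Prrx1), where 7.66% of all genes passed with such a size. These 5 genes passed in all 14 alternative analyses, some of which share their estimates. Of the 4 genes that fell, Prrx1 alone kept its call when YFP-positive array 1, 2 or 4 was left out, and likewise when YFP-negative array 1 was. Leaving out YFP-positive array 1 also brought Isl1 and Nkx2-2 past the threshold as lower. Of the 4, Prrx1 and Nkx2-3 kept their calls when YFP-positive array 3 was left out, and Prrx1 and Six2 when YFP-negative array 2 was. Without YFP-negative array 3, 11 members passed, among them 4 that did not with all arrays (Isl2, Nkx2-9, Pou2f2 and Pou6f1). The groups did not overlap for 7 genes with YFP-positive arrays above and 10 with them below, which is 23.9% against 26.9% of all genes.

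**Figure D1:**
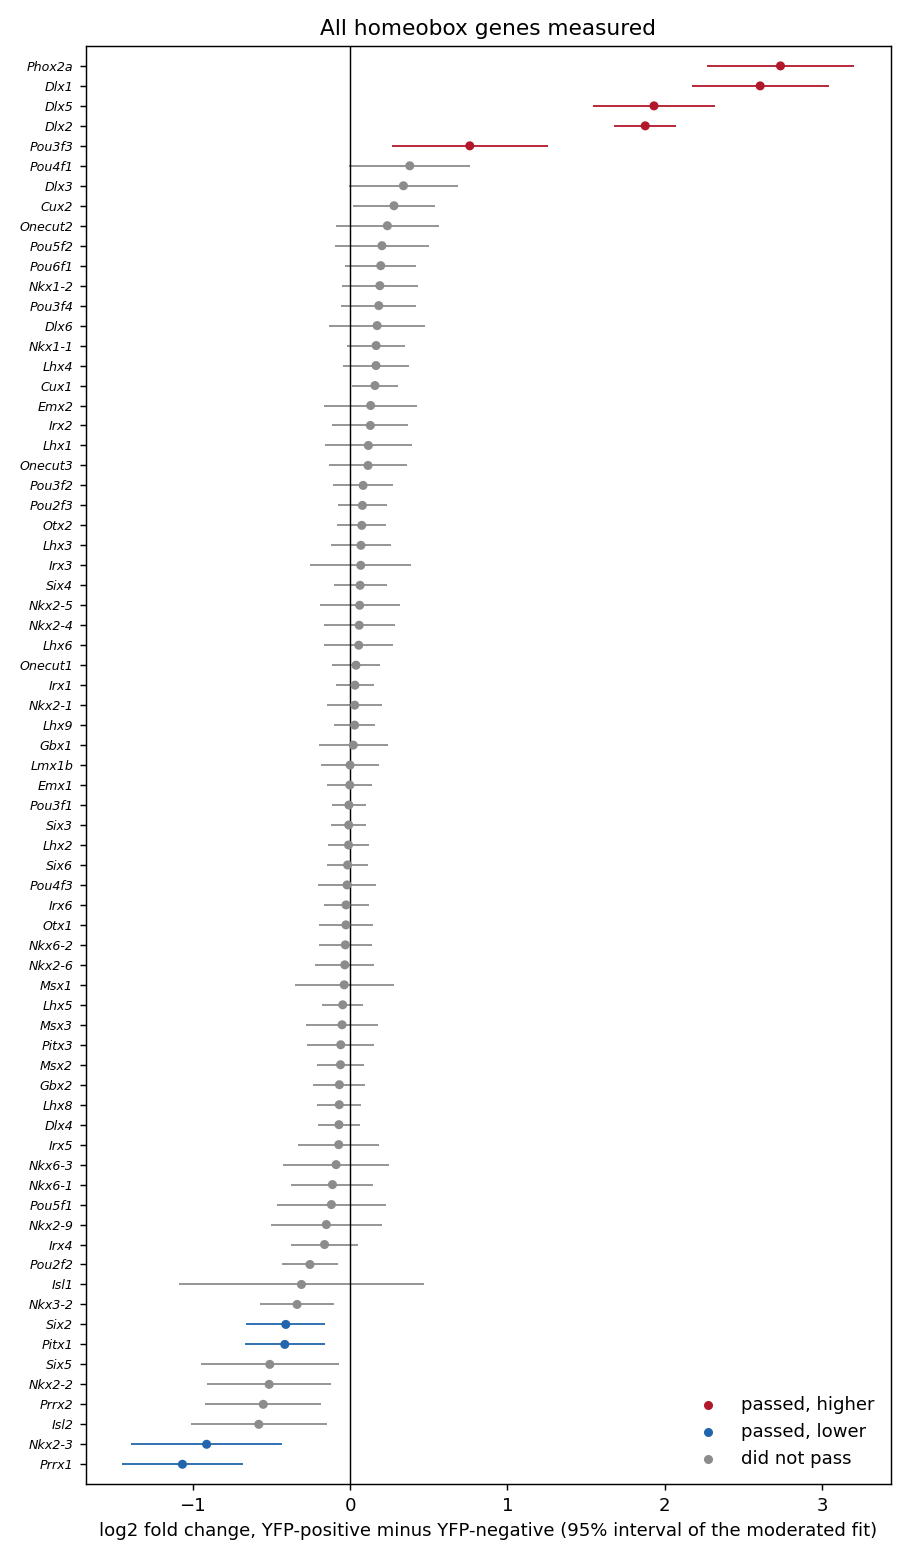
Log2 fold change (x axis, YFP-positive minus YFP-negative) of each of the 71 homeobox genes (y axis, ordered by value), with points for the estimate and lines for its 95% interval. Phox2a, Dlx1, Dlx5 and Dlx2 stand apart at 1.88 to 2.74, and 62 genes in grey did not pass.

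Most of the probe sets for these genes were dim. The mean level over the 7 arrays lay under the median of all genes (5.92) for 62 of the 71. For 31 of the 71, or 43.7%, at least 3 arrays had the same value to 4 decimals, against 32.7% of all genes. None of the 9 genes that passed had such ties. The deposited values have no detection call, and which of these dim genes were expressed at all is unknown here. Of the 62 genes that did not pass, 60 had a 95% interval inside a 2-fold difference in either direction. The exceptions were Isl1 (-1.09 to 0.47) and Isl2 (-1.01 to -0.15). Tied values can narrow an interval, and all 31 genes with ties are among these 62. A narrow interval on a dim probe set does not show that the gene was unchanged.

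**Figure D2:**
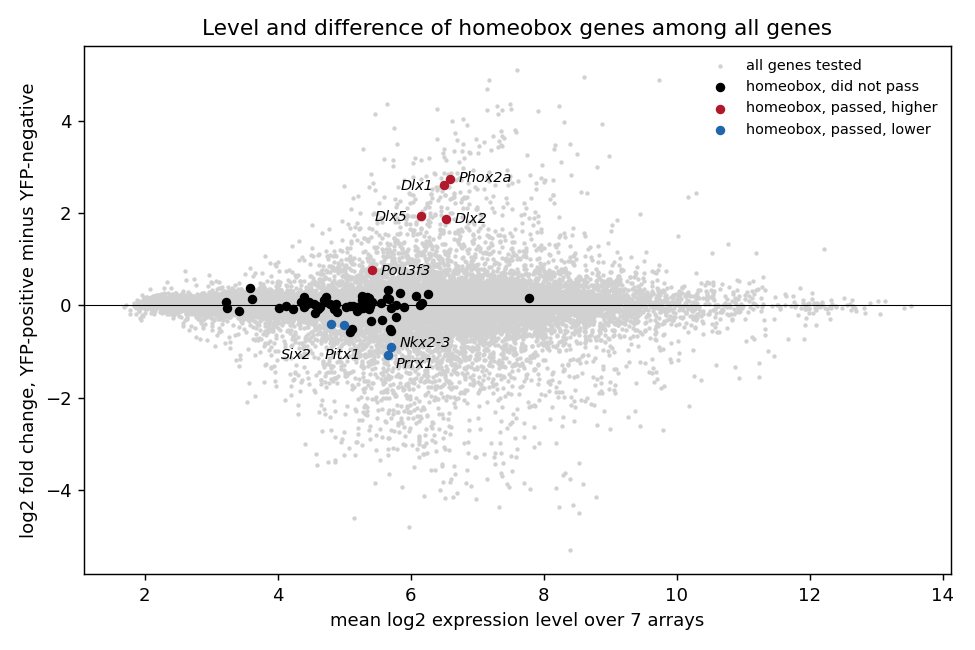
Mean log2 expression level over the 7 arrays (x axis) against log2 fold change, YFP-positive minus YFP-negative (y axis), for the 19938 genes tested (grey) and the homeobox genes (coloured by call). Most homeobox genes lie to the left of 5.92, the median level of all genes, and close to 0.

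Phox2a, a paired-type homeobox factor of autonomic neurons, had the largest difference of the 71. Its level was 8.01, 8.10, 7.53 and 7.42 on YFP-positive arrays 1 to 4, and 5.26, 4.83 and 5.0 on YFP-negative arrays 1 to 3. The YFP-positive values lay above all YFP-negative values, and arrays 1 and 2 were higher than arrays 3 and 4, as was the pan-neuronal mean given above. The part of that list in the spread was not tested. The gene rose 6.66-fold (a log2 difference of 2.74 ± 0.20 SE, limma adjusted p = 0.000173).

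The Dlx genes, distal-less homologues, split between 3 that rose and 3 that did not pass. Dlx1 had 7.45, 7.99, 7.5 and 7.51 in YFP-positive and 4.69, 5.03 and 5.30 in YFP-negative samples. It was 6.09-fold higher (2.61 ± 0.18 SE, limma adjusted p = 0.000161). Array 2 was the highest of the YFP-positive samples, and the groups were far apart. Dlx2, the neighbour of Dlx1 on chromosome 2, had 7.35, 7.41, 7.25 and 7.35 against 5.33, 5.43 and 5.63. Its values varied little, with an SD of 0.06 (n = 4), and it was 3.67-fold higher (1.88 ± 0.08 SE, limma adjusted p = 3.65e-05). Dlx5 had 7.02, 6.95, 7.25 and 6.72 against 5.38, 4.92 and 4.86. It was 3.81-fold higher (1.93 ± 0.16 SE, limma adjusted p = 0.000354), again with no overlap of the groups.

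Dlx6, which lies beside Dlx5 on chromosome 6, did not pass. Its level was 4.77, 4.93, 4.73 and 4.73 against 4.73, 4.31 and 4.82, so the groups overlapped, and the log2 fold change was 0.17 ± 0.13 SE (limma adjusted p = 0.436). Its probe set was dim in both groups, and a miss there does not show that the gene was unchanged. Dlx3 and Dlx4, neighbours on chromosome 11, had log2 fold changes of 0.34 ± 0.15 and -0.07 ± 0.06 SE, and neither passed. Dlx1as, an RNA read from the opposite strand at Dlx1, had a mean level of 4.99 against 4.76 and did not pass (log2 fold change 0.23 ± 0.16 SE, limma adjusted p = 0.406).

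Of 10 pairs of members that are next to each other among protein-coding genes in RefSeq, Dlx1 with Dlx2 was the only one in which both passed. Dlx5 passed beside Dlx6, and Six2 beside Six3. The other 7 pairs, among the Irx, Nkx2 and Dlx3 to Dlx4 genes, held no gene that passed.

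**Figure D3:**
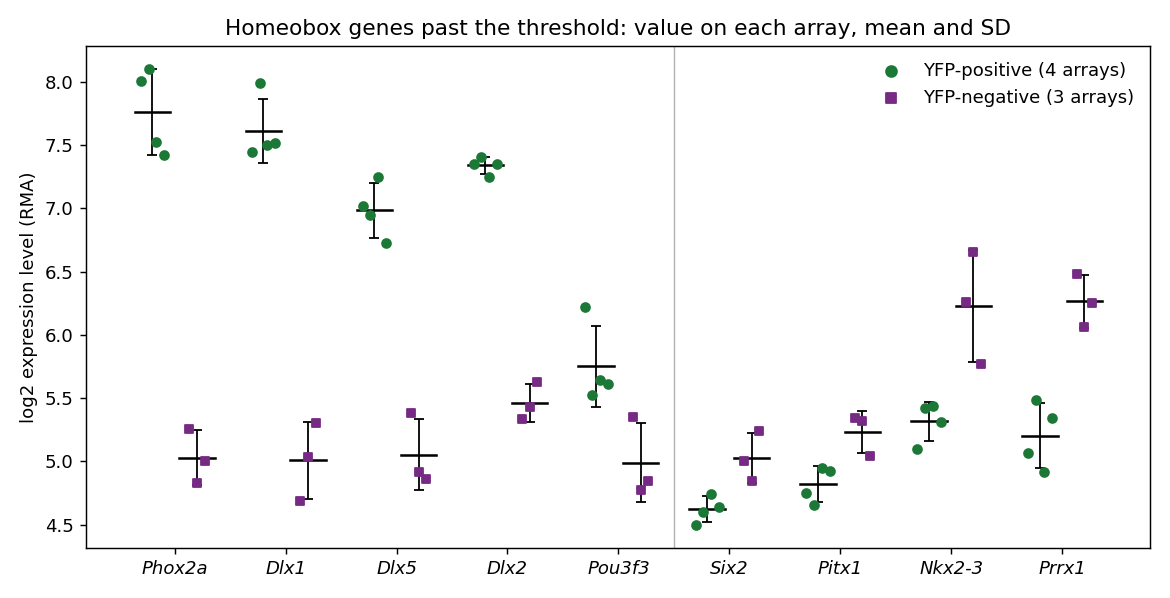
Log2 expression level (y axis) of the 9 homeobox genes that passed, with a point for each array and the mean and SD of each group in black. YFP-positive points lie above YFP-negative points for the 5 genes at the left and below them for the 4 at the right.

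Promoter sequences are shown for the genes that passed, so that those that rose and those that fell can be read side by side. RefSeq promoters (GRCm38.p6) matched 53 of the 71 genes and 7 of the 9 that passed, 4 that rose and 3 that fell, and the 250 bases before each start are given. Capitals mark the homeodomain core TAAT on either strand (ATTA on the strand shown) and the E-box CANNTG, the site of basic helix-loop-helix factors, which reads alike on both strands.
Phox2a, chr7:101818063-101818312, plus strand: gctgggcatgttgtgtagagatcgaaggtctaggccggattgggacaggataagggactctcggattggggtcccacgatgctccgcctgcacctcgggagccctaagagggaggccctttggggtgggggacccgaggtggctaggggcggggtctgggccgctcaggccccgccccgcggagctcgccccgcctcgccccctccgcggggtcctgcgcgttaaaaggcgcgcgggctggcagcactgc
Dlx1, chr2:71529195-71529444, plus strand: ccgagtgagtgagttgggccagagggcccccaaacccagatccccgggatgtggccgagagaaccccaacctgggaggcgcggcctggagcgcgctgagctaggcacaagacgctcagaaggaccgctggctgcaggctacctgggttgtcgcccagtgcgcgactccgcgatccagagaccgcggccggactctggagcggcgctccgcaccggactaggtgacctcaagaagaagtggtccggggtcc
Dlx2, chr2:71546755-71547004, minus strand: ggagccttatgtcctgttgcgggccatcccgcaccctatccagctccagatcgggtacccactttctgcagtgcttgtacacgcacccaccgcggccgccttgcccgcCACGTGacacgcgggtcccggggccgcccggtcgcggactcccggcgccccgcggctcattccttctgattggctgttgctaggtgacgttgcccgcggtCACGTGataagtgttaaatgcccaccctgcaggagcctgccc
Pou3f3, chr1:42695518-42695767, plus strand: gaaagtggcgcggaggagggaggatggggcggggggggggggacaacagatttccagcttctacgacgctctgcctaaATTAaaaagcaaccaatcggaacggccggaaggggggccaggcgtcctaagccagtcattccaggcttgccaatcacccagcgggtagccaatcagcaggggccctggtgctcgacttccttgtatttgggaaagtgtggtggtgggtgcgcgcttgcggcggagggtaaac
Prrx1, chr1:163313651-163313900, minus strand: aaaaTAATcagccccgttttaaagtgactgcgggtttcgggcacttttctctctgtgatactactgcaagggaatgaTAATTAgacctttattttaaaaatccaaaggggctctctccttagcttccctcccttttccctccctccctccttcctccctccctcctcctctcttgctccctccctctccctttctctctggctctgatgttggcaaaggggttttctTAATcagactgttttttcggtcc
Nkx2-3, chr19:43612075-43612324, plus strand: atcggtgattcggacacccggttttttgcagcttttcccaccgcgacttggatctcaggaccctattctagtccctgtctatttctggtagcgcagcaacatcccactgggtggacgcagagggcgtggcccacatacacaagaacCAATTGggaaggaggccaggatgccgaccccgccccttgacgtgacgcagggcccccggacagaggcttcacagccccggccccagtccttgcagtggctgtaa
Six2, chr17:85688255-85688504, minus strand: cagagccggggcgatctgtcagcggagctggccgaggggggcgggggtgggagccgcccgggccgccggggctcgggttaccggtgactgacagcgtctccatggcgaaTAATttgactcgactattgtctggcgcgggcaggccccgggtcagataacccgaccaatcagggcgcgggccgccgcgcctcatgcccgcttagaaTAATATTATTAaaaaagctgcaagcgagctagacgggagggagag

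Dlx5 and Pitx1 had no promoter here, and 4 promoters against 3 are too few to compare the directions. Of the genes that rose, Phox2a, Dlx1 and Dlx2 had 0 TAAT cores in this window and Pou3f3 had 1. Of those that fell, Prrx1 and Six2 had 4 each and Nkx2-3 had 0. Dlx2 had 2 E-boxes, both of the letters CACGTG, which begin 142 and 42 bases before the start, and Nkx2-3 had 1, which begins 104 bases before it. In Prrx1 a pair of cores overlaps in the palindrome TAATTA, 173 bases before the start. In Six2, 3 cores follow each other without a gap from 45 bases before the start, the last overlapping the one before it. A TAAT core was in 54.9% of all 32851 promoters of this length and in 41.5% of the 53 member promoters, and an E-box in 66.2% and 50.9%. The member promoters were richer in G and C, with a median of 64.8% against 52.4% for all. These matches describe the letters of a short window and say nothing on whether a factor binds there.

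Pou factors join a second DNA-binding domain to the homeodomain, and 1 of 11 rose. Pou3f3 (Brn1), a factor of neural progenitors and kidney, had 6.22, 5.53, 5.64 and 5.61 in YFP-positive and 5.35, 4.78 and 4.85 in YFP-negative samples. YFP-positive array 1 was the highest, and the groups did not overlap. It was 1.69-fold higher (0.76 ± 0.21 SE, limma adjusted p = 0.0485), and the call was lost when any 1 of the 4 YFP-positive arrays was left out, or YFP-negative array 2 or 3 (adjusted p of up to 0.166). The other Pou genes ranged from Pou4f1, a factor of sensory neurons, at 0.38 ± 0.16 SE to Pou2f2, a factor of B lymphocytes and neurons, at -0.26 ± 0.08 SE. Pou2f2 had 5.74, 5.74, 5.6 and 5.61 against 5.99, 5.99 and 5.80, with no overlap (limma adjusted p = 0.0628). Leaving out YFP-negative array 3 brought it past the threshold (adjusted p = 0.0296). The B lymphocyte marker list had means of 4.15 to 4.51 in YFP-positive and 5.15 to 5.58 in YFP-negative samples, and 1 of its 3 measured genes was lower. Its part in the values of Pou2f2 was not tested. Pou6f1 had 0.19 ± 0.10 SE (limma adjusted p = 0.23), and the same omission brought it past the threshold (adjusted p = 0.0354). Pou2f3, a factor of tuft cells, had 0.08 ± 0.07 SE, and 6 of the 11 Pou genes had the same value on at least 3 arrays.

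Isl1, a LIM homeobox factor of sensory and sympathetic neurons and of gut endocrine cells, differed widely among the YFP-positive samples. Its level was 6.35 on array 1, and 5.10, 4.90 and 5.36 on arrays 2, 3 and 4, against 5.87, 5.71 and 5.64 in the YFP-negative samples. Array 1 lay above all YFP-negative values and the other 3 below them. The log2 fold change was -0.31 ± 0.33 SE with all arrays (limma adjusted p = 0.59), and without YFP-positive array 1 it was -0.62 ± 0.13 SE, past the threshold (adjusted p = 0.0337). Dbh and Th, enzymes of noradrenaline and dopamine synthesis, were also highest on that array. Dbh had 7.10 there and 5.32 to 5.71 on the other YFP-positive arrays, and Th 6.69 and 4.64 to 5.02. What sets this array apart was not tested.

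Isl2, its close relative, had 4.54, 4.67, 5.08 and 5.08 in YFP-positive and 5.55, 5.6 and 5.12 in YFP-negative samples. The groups did not overlap and the nearest values were 5.08 and 5.12, but the gene did not pass (-0.58 ± 0.18 SE, limma adjusted p = 0.0748). With YFP-negative array 3 left out it passed (-0.73 ± 0.18 SE, adjusted p = 0.0463).

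**Figure D4:**
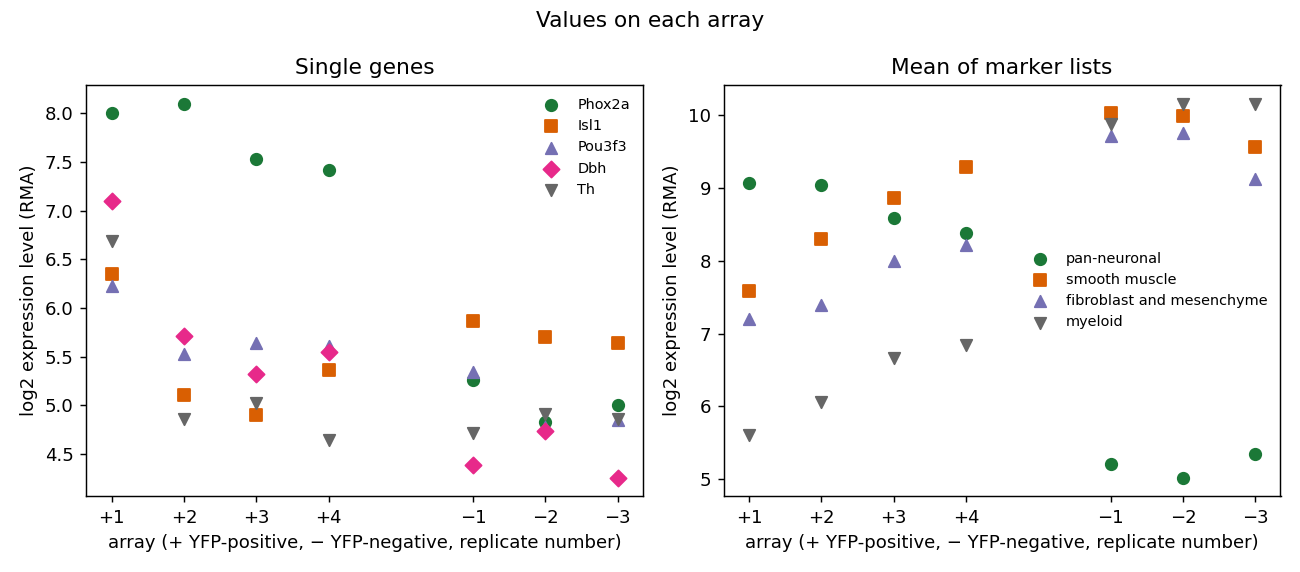
Log2 expression level (y axis) on each array (x axis, + for YFP-positive and − for YFP-negative with the replicate number) of 5 genes at the left and of the means of 4 marker lists at the right. Isl1, Dbh and Th are highest on YFP-positive array 1, at 6.35, 7.10 and 6.69. The non-neural lists are lowest there.

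The other families known from neurons had 0 calls. The 8 Lhx genes, LIM homeobox factors of neuron subtypes, ranged from Lhx4 at 0.16 ± 0.09 to Lhx8 at -0.07 ± 0.06 (log2 fold change ± SE), and 6 had the same value on at least 3 arrays. Lmx1b, a factor of dopamine and serotonin neurons, stood between 5.61 and 5.91 on all arrays. Emx1 and Emx2, Otx1 and Otx2, and Gbx1 and Gbx2, patterning genes of the brain, all lay between -0.07 and 0.13. Each of these 6 had at least 3 arrays with the same value. Onecut2, a factor of liver and gut endoderm, had 6.11, 6.18, 6.64 and 6.50 against 6.05, 6.18 and 6.13. YFP-positive arrays 3 and 4 were the high ones, and the gene did not pass (0.24 ± 0.14 SE, limma adjusted p = 0.313). The epithelium list was also higher on arrays 3 and 4, with means of 8.07, 8.32, 9.02 and 9.22 against 8.76 to 8.81 in YFP-negative samples. Its part in the values of Onecut2 was not tested.

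Cux1 and Cux2, cut-type homeobox factors, were slightly higher in every YFP-positive sample than in any YFP-negative sample. Cux1, which is broadly expressed, had 7.95, 7.86, 7.75 and 7.85 against 7.70, 7.70 and 7.68, a log2 fold change of 0.16 ± 0.06 SE (limma adjusted p = 0.131). Cux2, a factor of upper-layer cortical and spinal neurons, had 6.22, 5.80, 5.83 and 5.98 against 5.65, 5.64 and 5.74 (0.28 ± 0.11 SE, limma adjusted p = 0.136). Neither passed.

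Prrx1, a paired-related factor of limb and gut mesenchyme, fell. It had 5.07, 5.48, 4.92 and 5.34 in YFP-positive and 6.48, 6.07 and 6.25 in YFP-negative samples, with no overlap. It was 2.09-fold lower in YFP-positive cells (-1.07 ± 0.16 SE, limma adjusted p = 0.00435). Prrx2 had 5.14, 5.56, 5.66 and 5.47 against 6.28, 5.85 and 5.91, also with no overlap, and missed the threshold (-0.55 ± 0.16 SE, limma adjusted p = 0.0527). The fibroblast and mesenchyme marker list was lower for 8 of 8 genes, with means of 7.20 to 8.22 against 9.12 to 9.75, and its part in these values was not tested.

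Among 13 Nkx genes, 1 fell. Nkx2-3, a factor of gut mesenchyme and spleen, had 5.10, 5.42, 5.44 and 5.31 in YFP-positive and 6.26, 6.66 and 5.77 in YFP-negative samples. The YFP-positive values lay close together and the YFP-negative ones spread widely, with an SD of 0.16 (n = 4) against 0.44 (n = 3). It was 1.88-fold lower (-0.91 ± 0.20 SE, limma adjusted p = 0.0214), and the call was lost on leaving out array 1, 2 or 4 of the YFP-positive or array 1 or 2 of the YFP-negative group (adjusted p of up to 0.0755). The fibroblast list had its lowest YFP-negative mean, 9.12, on array 3, where Nkx2-3 was also lowest. The smooth muscle, enteroendocrine and mesothelium lists were lowest there too, at 9.56, 6.93 and 6.91, and the other marker lists on array 1 or 2. The part of these lists in the values of Nkx2-3 was not tested. Nkx3-2 (Bapx1), a stomach mesenchyme factor, had 5.35, 5.09, 5.35 and 5.28 against 5.78, 5.55 and 5.48, with no overlap, and did not pass (-0.34 ± 0.10 SE, limma adjusted p = 0.0596). Nkx2-2, a factor of enteroendocrine cells and ventral neural tube, had 4.43, 4.99, 5.05 and 5.09 against 5.53, 5.40 and 5.29 (-0.51 ± 0.17 SE, limma adjusted p = 0.0818). With YFP-positive array 1 left out it passed (-0.36 ± 0.08 SE, adjusted p = 0.0308). The enteroendocrine list had means of 6.30 to 7.05 against 6.93 to 8.0, with 1 of 8 genes lower, and its part was not tested. Nkx2-5, a factor of heart and pyloric sphincter, had 5.97 to 6.42 in YFP-positive and 6.08 to 6.16 in YFP-negative samples. The highest log2 fold change of the family was that of Nkx1-2 at 0.19 ± 0.10 SE.

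Pitx1, a bicoid-related factor of hindlimb and pituitary, had 4.75, 4.66, 4.95 and 4.93 in YFP-positive and 5.35, 5.32 and 5.04 in YFP-negative samples. The gene fell 1.33-fold with no overlap (-0.42 ± 0.11 SE, limma adjusted p = 0.0391), and the call held only without YFP-negative array 3 when single arrays were left out (adjusted p of up to 0.135 without another). Pitx3, a factor of lens and dopamine neurons, had -0.06 ± 0.09 SE. Six2, a factor of kidney progenitors and the pyloric sphincter, had 4.5, 4.6, 4.75 and 4.64 against 5.0, 4.85 and 5.24. It fell 1.33-fold (-0.41 ± 0.11 SE, limma adjusted p = 0.0392), and of the 7 fits with 1 array left out only that without YFP-negative array 2 kept the call (adjusted p of up to 0.0992). Six5 had 4.98, 5.64, 5.64 and 5.59 against 6.15, 5.99 and 5.78. Its groups did not overlap, and it did not pass (-0.51 ± 0.19 SE, limma adjusted p = 0.113). Six3, Six4 and Six6 had the same value on at least 3 arrays each, and the family ranged up to Six4 at 0.06 ± 0.07 SE.

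The Msx and Irx families had 0 calls. Msx1 and Msx2, targets of bone morphogenetic protein signalling in mesenchyme and neural crest, had log2 fold changes of -0.04 ± 0.13 and -0.06 ± 0.06 SE. Msx2 had 4.0 on 6 arrays and 4.18 on YFP-negative array 3. The 6 Irx genes, Iroquois factors that pattern neural tube and heart, ranged from Irx2 at 0.13 ± 0.10 to Irx4 at -0.16 ± 0.09 SE. Irx3 had 4.19 to 4.71 against 4.16 to 4.41, and Irx5 4.75 to 4.84 against 4.68 to 5.14, so the groups overlapped for both.

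Homeobox genes of other families were counted for comparison. Of 65 measured, 8 rose and 3 fell, and the list's median log2 difference was 0.01. These calls are 16.9% of the list, near the 17.5% of all genes tested. The largest of the higher ones were the teashirt gene Tshz1 (1.47 ± 0.14 SE), Tlx2, a factor of enteric and sympathetic neurons (1.25 ± 0.22), the zinc-finger homeobox gene Zfhx2 (1.22 ± 0.14) and Hmx3 (1.06 ± 0.15). The lower ones were Hhex, a factor of liver, endothelium and blood progenitors (-1.78 ± 0.20), Hlx, a factor of gut mesenchyme (-1.48 ± 0.26), and Mkx, a factor of tendon (-0.87 ± 0.17). Mkx lost its call without YFP-negative array 2 (limma adjusted p = 0.053), and 5 genes of the list passed as higher when YFP-positive array 1 or 2 was left out.

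Partner proteins of these factors were measured as a list of 24 genes, of which 5 were higher and 2 lower (median log2 fold change 0.15). That is 20.8% higher and 8.33% lower, against 8.39% and 9.11% of all genes. Eya1, a co-activator that binds sine oculis homeobox factors such as Six2, had 7.60, 7.53, 6.99 and 7.26 against 4.67, 4.78 and 5.32. It was 5.36-fold higher (2.42 ± 0.21 SE, limma adjusted p = 0.000354), while Eya2 fell (-0.57 ± 0.13 SE). Of the Groucho co-repressors, Tle1 rose by 0.98 ± 0.09 and Tle4 by 0.58 ± 0.13 SE. Of the LIM-domain partners, Lmo1 rose by 0.45 ± 0.10, and Lmo2, known from blood and endothelium, fell (-1.34 ± 0.30 SE). The myeloid list had means of 5.6 to 6.85 against 9.88 to 10.16, and its part in Lmo2 was not tested. The higher partners numbered 3 when YFP-positive array 2 or YFP-negative array 1 was left out and 2 when YFP-negative array 2 was. The lower partners numbered 0 when YFP-positive array 1, 2 or 3 was left out and 1 when YFP-positive array 4 or YFP-negative array 1 was. Eya1 and Tle1 kept their calls in every fit with 1 array left out. Tle4 lost its call on leaving out array 1, 2 or 4 of the YFP-positive or array 1 or 2 of the YFP-negative group. Lmo1 lost it on leaving out YFP-positive array 2 or any 1 YFP-negative array. Lmo2 lost its call without YFP-positive array 1, 2 or 3, and Eya2 without any 1 YFP-positive array or YFP-negative array 1.

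Of 9 genes tied to Phox2 factors in earlier work, 7 rose and 0 fell (median log2 difference 1.97), where 8.39% of all genes rose. Phox2a itself is on this list, and the list was written with results of these samples known. The nicotinic receptor genes Chrna3 and Chrnb4 rose by 5.10 ± 0.22 and 4.21 ± 0.19 SE, the GDNF receptor gene Ret by 3.40 ± 0.18, the bHLH gene Hand2 by 1.97 ± 0.14 and the receptor kinase gene Alk by 0.82 ± 0.12, beside Tlx2. Dbh did not pass (1.46 ± 0.42 SE, limma adjusted p = 0.0549). It passed in 5 of the 14 alternatives, with an adjusted p of 0.00969 to 0.15 over all of them, and among the fits with 1 array left out it passed when YFP-positive array 1 was omitted (1.06 ± 0.16 SE, adjusted p = 0.00969). Th did not pass either (0.47 ± 0.47 SE, limma adjusted p = 0.565).

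**Figure D5:**
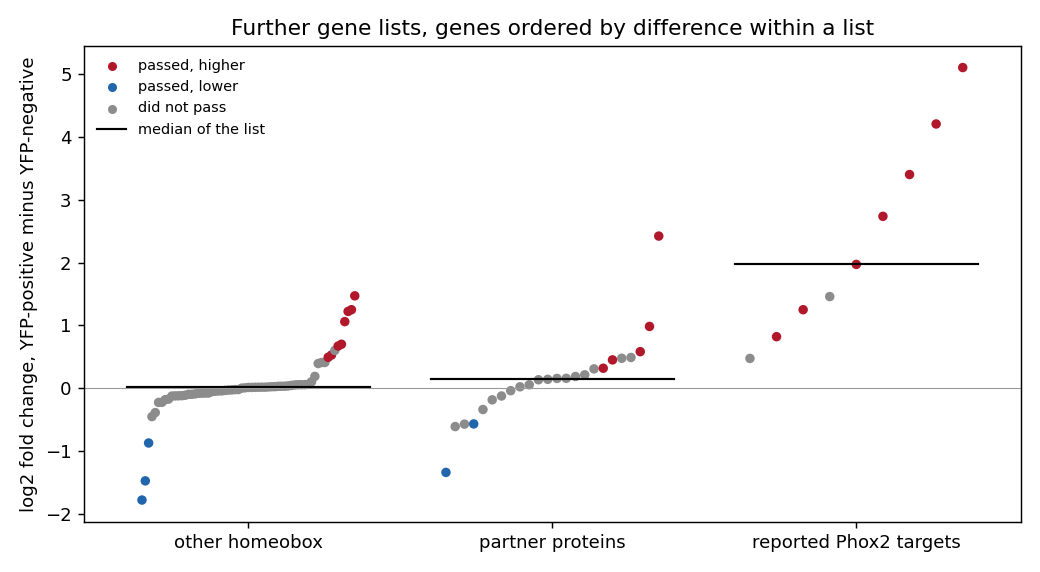
Log2 fold change (y axis, YFP-positive minus YFP-negative) of each measured gene in the lists of other homeobox genes, partner proteins and genes tied to Phox2 factors (x axis), with a line at each list's median of 0.01, 0.15 and 1.97. Colours give the call.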

How the data were processed

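The 7 arrays hold total RNA taken up in Trizol and amplified with the NuGen Ovation PicoSL WTA System, per the labels' protocols. The deposited log2 values came from Affymetrix Expression Console with the RMA method (submitters' processing notes); RMA subtracts background, gives all arrays 1 distribution and condenses each set of probes to 1 value. Versions are not given in the sources used. Of 35556 probe sets, 21789 had 1 gene symbol in the platform annotation, 1621 several and 12146 none; the first were used, with the probe set of highest mean per gene (1 member, Pou3f2, had several). All 71 Entrez IDs matched RefSeq.

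Groups were compared with limma 3.58.1 (lmFit and eBayes) in R 4.3.3 over all 19938 genes, with Benjamini-Hochberg adjustment and a threshold of 0.05. The fit was tested on simulated data with independent noise on each array. These lack the trends across arrays described above, so the test checks the code and not the calls made here. Tables and plots used Python 3.11.15, pandas 2.3.3, numpy 2.4.6, scipy 1.17.1 and matplotlib 3.10.9. Members and lists were chosen with earlier results of these data known. Values are given for members that passed, the highest and lowest fold change in each family, the 10 members with the highest mean level in each group and a set list, and for up to 4 genes per direction of the further lists and all Phox2-linked genes. Dlx3, Nkx2-9, Pou4f1, Six3, Six6 and Dlx1as were named after their values were seen. Alternatives changed the variance moderation (trend and robust), the scaling (median centring, quantile), the filter (dimmest genes out), the probe set rule (mean), the pairing (replicate block) and the arrays used (1 left out; YFP-positive arrays 3 and 4 out, added after seeing the data).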

Additional observations from a re-analysis of the deposited data

Results flagged for a closer look

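In the group of 4 YFP-positive arrays, 1 array stood apart from the others for 11 of the 63 genes named. The measure was the gap to its nearest neighbour relative to the range of the group (Dixon's 95% limit). Chance alone does this for about 1 in 20 genes when values are normally distributed. For 5 of the 11 genes the other arrays were tied, so that rate does not apply to them. Among the genes that passed, Dlx1 was high on array 2 (7.99, the next being 7.51) and Pou3f3 high on array 1 (6.22, the next being 5.64). Nkx2-2 (4.43, the next being 4.99) and Six5 (4.98, the next being 5.59) were low on array 1.

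The other genes differed by small amounts from values that were tied or nearly so. On array 1, Gbx1 (4.41 against 4.46) and Gbx2 (4.09 against 4.24) were low, and Onecut1 (5.52 against 5.35) and Otx2 (3.38 against 3.22) high. Six4 was high (4.62 against 4.41) and Lhx8 low (4.49 against 4.59) on array 2, and Irx2 was high on array 3 (5.99 against 5.65).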

How the results depend on the processing

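Phox2a, Dlx1, Dlx2, Dlx5 and Prrx1 passed in all 14 alternatives, which are not 14 separate checks. The replicate block gave the same fold changes as leaving out YFP-positive array 4, which has no YFP-negative array of its number. The mean of probe sets could change the values of only 1 member, Pou3f2. The count of lower members, 4 with all arrays, was 1 with the replicate block, 1 without YFP-positive arrays 3 and 4, and 1 to 6 with 1 array left out; that of higher members was 4 to 5 with 1 array left out. With the replicate block 4 of the other homeobox genes were higher and 1 lower, and 2 partners were higher and 1 lower; Nkx2-3, Pitx1 and Six2 lost their calls and Pou4f1 gained one. Without YFP-positive arrays 3 and 4, 5 other homeobox genes were higher, and 3 partners higher and 0 lower. With 1 array left out, higher and lower counts ranged from 5 to 7 and 2 to 4 (other homeobox genes), 2 to 5 and 0 to 3 (partners), and 1202 to 1452 and 1166 to 1890 (all genes; the 1166 was without YFP-negative array 2). The Phox2-linked genes that rose, 7 with all arrays, numbered 8 with trend and robust moderation, median centring or quantile normalization, 6 with the replicate block, and 7 to 8 with 1 array left out. Pitx1 and Six2 were among the dim genes that the filter removed, and Nkx3-2 and Prrx2 passed under it. Same-numbered arrays did not deviate together (correlations 0.0084, -0.086 and 0.038). With so few arrays per group, this cannot show whether the numbers pair the samples.

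Signs were checked for the 43 members and 20 other genes whose values are given, not for the other members. Of these log2 fold changes, 10 changed sign, and none of the 10 passed the threshold where it did. Median centring gave 0.029 for Emx1, 0.030 for Lmx1b and 0.0039 for Otx1, and quantile normalization 0.0074 for Emx1 and 0.0067 for Lmx1b. The replicate block gave 0.031 for Emx1, 0.059 for Lmx1b, 0.033 for Msx1 and 0.024 for Otx1. The fit without YFP-positive array 4 gave these same values, so they are not a separate result. Without YFP-positive arrays 3 and 4 Emx1 had 0.046 and Lmx1b 0.025. With 1 array left out the ranges were -0.033 to 0.031 (Emx1), -0.084 to 0.107 (Gbx1), -0.042 to 0.132 (Irx3), -0.177 to 0.054 (Irx5), -0.042 to 0.059 (Lmx1b), -0.134 to 0.054 (Msx1), -0.015 to 0.136 (Nkx2-5), -0.0058 to 0.056 (Onecut1), -0.065 to 0.024 (Otx1) and -0.117 to 0.015 (Pitx3). The cause was not tested. Low signal and the lack of detection calls limit what dim genes can show.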
